A study of Homo sapiens with 12 samples.

Results

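The genes described here are 10 of the 70116 in the count table, chosen by name: the carriers of a known iron-responsive element (TFRC, FTH1, FTL, SLC40A1, SLC11A2 and EPAS1) and the iron regulators IREB2, FBXL5, NCOA4 and STEAP3. They were measured by poly(A) RNA sequencing in the human pancreatic cancer line MiaPaCa-2, with 3 libraries in each of 4 groups that differed in the transfected small interfering RNA (siRNA). The groups were siControl, siSLC25A1, siACLY and siACO1; all share the line and the transfection, and no further allele or agent is given for any of them. The title of the series places them in a study of cytosolic citrate and ferroptosis, an iron-dependent form of cell death. The sources used here do not give the siRNAs (their sequences or how many per target), the medium at harvest or the time after transfection. They do not say whether libraries of a group came from separate cultures, so p-values measure the spread between these libraries, which may be technical.

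An iron-responsive element is a short hairpin in an untranslated region (UTR) of a transcript, with an unpaired C and a loop of 6 bases at its tip. When iron is scarce it is bound by iron regulatory protein 1, which is the product of ACO1 without its iron-sulfur cluster and is otherwise the cytosolic aconitase, or by iron regulatory protein 2, the product of IREB2. Binding in a 5′ UTR blocks translation of the message, as for ferritin, while binding in the 3′ UTR of TFRC protects the message from decay. Knockdown of ACO1 lowers the transcript of one of the proteins that read these elements, while SLC25A1, the mitochondrial citrate carrier, and ACLY, which splits cytosolic citrate, act on the substrate of aconitase. Read counts show transcript levels, not translation or protein.

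The elements are shown because they define the set and place each gene among those bound in the 5′ or in the 3′ UTR. All sequences are from GENCODE release 29 transcripts on GRCh38, 5′ to 3′ along the transcript; the capitals mark the unpaired C and the 6-base loop. TFRC holds 5 elements within its 3′ UTR of 2658 bases (minus strand), and no other of 18929 3′ UTRs held as many.

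TFRC 3′ UTR, element 1, chr3:196051029-196051057: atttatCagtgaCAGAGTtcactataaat

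TFRC 3′ UTR, element 2, chr3:196050979-196051007: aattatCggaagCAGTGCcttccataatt

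TFRC 3′ UTR, element 3, chr3:196050575-196050603: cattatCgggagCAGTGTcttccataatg

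TFRC 3′ UTR, element 4, chr3:196050510-196050538: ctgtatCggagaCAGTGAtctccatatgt

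TFRC 3′ UTR, element 5, chr3:196050463-196050491: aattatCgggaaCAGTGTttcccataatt

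SLC11A2 3′ UTR, chr12:50988268-50988297, minus strand: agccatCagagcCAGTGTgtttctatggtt

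FTH1 5′ UTR, chr11:61967574-61967602, minus strand: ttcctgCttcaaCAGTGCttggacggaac

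FTL 5′ UTR, chr19:48965335-48965363, plus strand: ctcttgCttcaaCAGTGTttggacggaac

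SLC40A1 5′ UTR, chr2:189580661-189580689, minus strand: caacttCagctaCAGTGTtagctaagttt

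EPAS1 5′ UTR, chr2:46297479-46297508, plus strand: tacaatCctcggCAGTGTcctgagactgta

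The pattern searched on the transcript strand was C, 5 bases, CAGTG or CAGAG and a base other than G, then 5 bases that pair with the first 5, with 1 extra base allowed in the 3′ arm. The search covered 1 coding transcript per gene, so a match in another transcript of a gene would not be seen here. The pattern was found in 0.492% of 18715 5′ UTRs and in 2.02% of 18929 3′ UTRs. Among UTRs of a length near that of each gene's own the share was 0.491% for FTH1, 0.48% for FTL, 0.804% for SLC40A1, 1.05% for EPAS1, 3.77% for TFRC and 3.09% for SLC11A2. The upper stem and loop of the ferritin elements are the same but for the last base of the loop. Elements of SLC11A2 and EPAS1 matched only with the extra base. The same letters also occurred once in the 3′ UTR of STEAP3 (chr2:119263771-119263799) and of IREB2 (chr15:78500969-78500998), which are matches of letters and not known elements, and nowhere in the UTRs of FBXL5 or NCOA4.

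Library totals ran from 24159424 to 43792811 counts, and 16197 genes passed the filter on low counts. Each siRNA lowered its own target, to 8.78% of siControl for SLC25A1, 7.25% for ACLY and 3.75% for ACO1 (edgeR adjusted p 1.52e-26, 4.15e-32 and 2.43e-25). ACO1 itself was at 44.4, 43.9 and 46.8 CPM (counts relative to the library total, with totals scaled by the trimmed mean of M values) in siControl and at 1.57, 2.05 and 1.41 CPM in siACO1. The line's epithelial keratins KRT8 (1263 to 2436 CPM) and KRT18 (750.2 to 1345 CPM) and the mesenchymal VIM (3472 to 4813 CPM) were high in every library, EPCAM was at most 0.0776 CPM, and of 7 markers of other cell types PTPRC, PRSS1, INS and HBB were at 0 and the highest value was 0.25 CPM (COL1A1). Replicate 3 of siACO1 stood apart: its chi-square per degree of freedom against replicates 1 and 2 was 11.38 and 12.15, while all other pairs within a group were between 2.28 and 5.57. Longer transcripts had lower values in it than in its group (Spearman's rho of deviation and length -0.571, across 9370 genes that are no replicates). Log2 fold changes in siACO1 against siControl are therefore also given without it.

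The genes of the set differed widely in level. Per length of the transcript, in siControl, FTL stood at 3473 CPM per kb (rank 9 of 19579 coding genes) and FTH1 at 703 CPM per kb (rank 79), followed by TFRC at 149 and NCOA4 at 68.6 CPM per kb. STEAP3 and FBXL5, at 13.4 and 13.3 CPM per kb, were next to each other in this order, before IREB2 (11.1), SLC11A2 (6.49), ACO1 (6.03) and EPAS1 (0.367 CPM per kb). SLC40A1, which encodes ferroportin, the only known cellular iron exporter, had 2 counts in 1 siControl library, 1 count in 1 siACLY library and none in the other 10. It did not pass the filter and was not tested, so the tests below cover 9 of the 10 genes. A count of 0 allows up to 3 counts in a library, by counting error alone.

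Across the set, ACO1 knockdown went with the most calls. The genes were chosen with earlier results of these data known, so the counts describe the set and test nothing. In siACO1 against siControl 7 of the 9 tested genes passed an adjusted p of 0.05 in edgeR's quasi-likelihood test, where 37.1% of all tested genes did. Of these, 5 were lower (TFRC, STEAP3, SLC11A2, FTL and EPAS1; 19.3% of all genes were lower) and 2 higher (IREB2 and FBXL5; 17.8% of all genes). In siACLY 4 were called, all lower (TFRC, STEAP3, FTH1 and FTL), beside 36.7% of all genes, 18.3% lower and 18.4% higher. In siSLC25A1 2 were called, both higher (TFRC and STEAP3), beside 19.6% of all genes, 10.3% higher and 9.27% lower. The split over all genes depends on scaling: 2876 were higher and 3132 lower in siACO1, but 3582 and 2442 with library totals alone, and in siACLY 2977 and 2967 became 3587 and 2292. The counts for siACLY and siSLC25A1, 4 and 2 of 9, are close to the share of all genes. Among tested coding genes alone the share called was higher, at 43.8% in siACO1, 43.7% in siACLY and 24.3% in siSLC25A1. The median log2 fold change of the 9 genes was -0.26 in siACO1, -0.10 in siACLY and -0.02 in siSLC25A1, where all tested genes had medians of 0.006, 0.008 and -0.004. These 3 comparisons share their control libraries. All 3 siACO1 libraries lay outside the siControl range for 8 of the 9 genes, all but NCOA4, and for 46.3% of all genes; in siACLY and siSLC25A1 this held for 5 genes each, beside 50.5% and 37.1%.

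**Figure D1:**
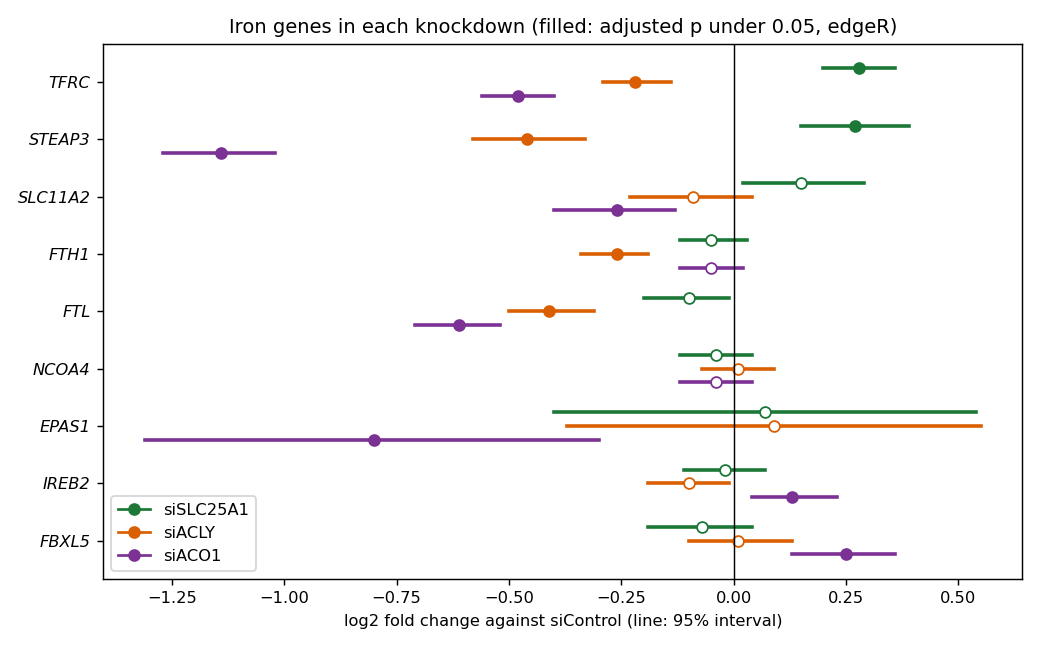
Log2 fold change (x axis) of the 9 tested iron genes (y axis) in siSLC25A1, siACLY and siACO1 against siControl; points are edgeR estimates, lines their 95% intervals, and filled points have an adjusted p under 0.05. TFRC and STEAP3 lie to the right of 0 in siSLC25A1 and to the left in siACLY and siACO1, and STEAP3 in siACO1 lies farthest left, at -1.14.

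The uptake genes were examined first. TFRC (ENSG00000072274.14) encodes transferrin receptor 1, which takes up iron-loaded transferrin. Its level was 751, 779 and 756 CPM in siControl, 926, 941 and 909.8 CPM in siSLC25A1, 657, 663 and 646 CPM in siACLY, and 544, 566 and 528 CPM in siACO1. No library of one group overlapped with another group, and the order was siSLC25A1, siControl, siACLY, siACO1. TFRC rose in siSLC25A1 by a log2 fold change of 0.28 (SE 0.0378, adjusted p 2.21e-06). It fell in siACLY (-0.22, SE 0.0379, adjusted p 3.85e-05) and in siACO1 (-0.48, SE 0.038, adjusted p 3.67e-11; -0.46 without replicate 3 of siACO1). The knockdowns also differed from each other, with TFRC in siACO1 at 59.0% of its level in siSLC25A1 (adjusted p 9.08e-16) and at 83.3% of that in siACLY (adjusted p 1.56e-06).

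STEAP3 (ENSG00000115107.20) encodes the endosomal reductase that turns the iron released from transferrin into the ferrous form. It showed the same order of groups with a wider span: 53.4, 50.8 and 53.0 CPM in siControl, 63.2, 62.5 and 64.0 CPM in siSLC25A1, 37.3, 38.3 and 39.2 CPM in siACLY, and 26.3, 20.9 and 24.2 CPM in siACO1. The 4 groups did not overlap. The log2 fold change against siControl was 0.27 in siSLC25A1 (SE 0.0578, adjusted p 0.000979), -0.46 in siACLY (SE 0.0591, adjusted p 4.52e-07) and -1.14 in siACO1 (SE 0.0622, adjusted p 1.25e-14; -1.16 without replicate 3). In siACO1 this left STEAP3 at 45.3% of siControl, and 216 of the 16197 tested genes had a lower log2 fold change. STEAP3 in siACO1 was also at 62.1% of its level in siACLY (adjusted p 5.08e-10) and at 37.6% of that in siSLC25A1 (adjusted p 5.48e-17). An antisense gene, STEAP3-AS1, overlaps 11.0% of its exon bases and had 1 to 13 counts per library; whether counting used the strand is not given in the sources used here.

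SLC11A2 (ENSG00000110911.17), whose product DMT1 carries ferrous iron out of the endosome, moved less. Its libraries had 28.2, 26.8 and 26.1 CPM in siControl, 29.8, 27.9 and 32.5 CPM in siSLC25A1, 24.3, 26.3 and 25.6 CPM in siACLY, and 23.6, 22.0 and 22.1 CPM in siACO1. The siACO1 libraries were below all others, while siSLC25A1 and siACLY overlapped with siControl. SLC11A2 fell in siACO1 (log2 fold change -0.26, SE 0.0665, adjusted p 0.00228), and the value without replicate 3 was -0.25. The changes of 0.15 in siSLC25A1 (95% interval 0.02 to 0.29, adjusted p 0.106) and -0.09 in siACLY (-0.23 to 0.04, adjusted p 0.278) did not pass. siACO1 differed from siSLC25A1 (log2 fold change -0.41, adjusted p 9.78e-06), and from siACLY only narrowly (-0.17, adjusted p 0.0446), a call lost in 11 of 20 alternative analyses, where the adjusted p reached 0.15. The 3′ UTR of SLC11A2 holds 1 copy of AACTAAC, a heptamer taken from earlier work on these data because its presence goes with lower values in siACO1 (median log2 fold change -0.1041 in 137 genes with it and -0.0226 in those without it, among 1600 tested genes with 3′ UTRs of similar length, of which 8.56% hold it). None of the other 9 genes holds it (transcript strand searched). As it was chosen by values of these same data, its lower median follows from that choice and is no evidence on SLC11A2. Another heptamer searched, TCTACGT, occurred in the 3′ UTR of no gene of the set. Over 11780 genes with a 3′ UTR, median log2 fold changes in siACO1 were -0.1684 with TCTACGT and -0.0171 without it. For AACTAAC they were -0.1324 and -0.0131. The part of AACTAAC in the fall of SLC11A2 was not tested.

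**Figure D2:**
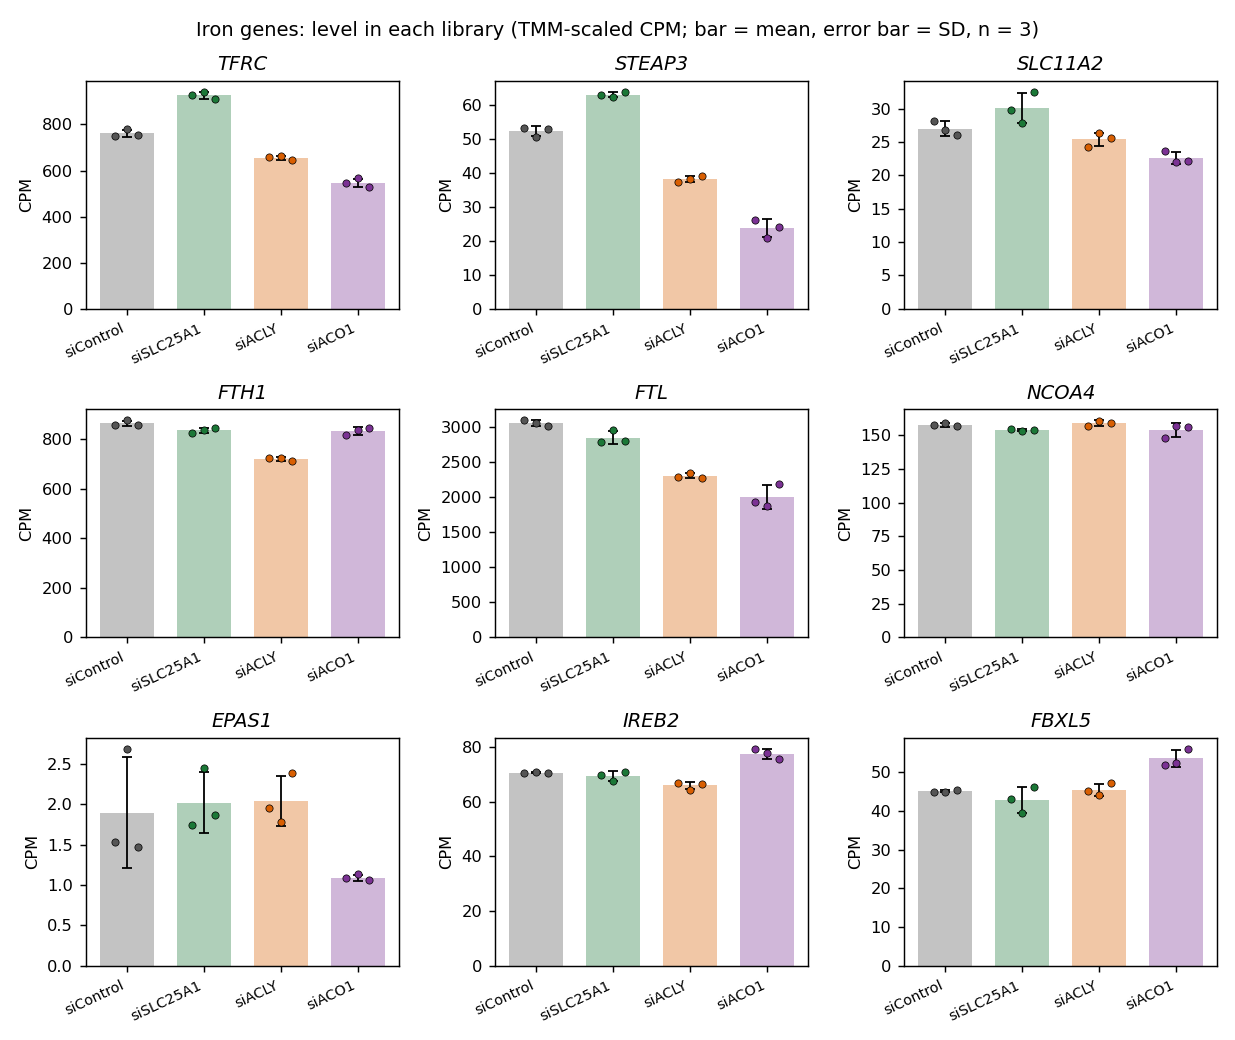
Level of the 9 tested genes in CPM scaled by trimmed mean of M values (y axes start at 0) in the 4 groups (x axes); points are libraries, bars the means and error bars the SD of 3 libraries. TFRC and STEAP3 fall from siSLC25A1 through siControl and siACLY to siACO1 without overlap, while FTH1 is lowest in siACLY and FTL in siACO1.

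Ferritin is the iron store, a shell of heavy and light chains encoded by FTH1 and FTL, and the 2 transcripts differed in siACO1. FTL (ENSG00000087086.15) had 3088, 3048 and 3011 CPM in siControl, 2778, 2945 and 2798 CPM in siSLC25A1, 2287, 2341 and 2274 CPM in siACLY, and 1929, 1869 and 2186 CPM in siACO1. Every siACLY and siACO1 library was below every siControl and siSLC25A1 library. FTL fell in siACLY (log2 fold change -0.41, SE 0.0455, adjusted p 3.59e-08) and in siACO1 (-0.61, SE 0.0456, adjusted p 1.11e-11), and siACO1 was below siACLY as well (-0.21, adjusted p 0.000492). The highest siACO1 value is that of replicate 3, without which the log2 fold change was -0.69. In siSLC25A1 the change of -0.10 (95% interval -0.20 to -0.01) had an adjusted p of 0.117. It was 0.0196 when only the 2 groups entered the fit (SE 0.033 against 0.0454) and 0.00734 without replicate 3 of siACO1 (SE 0.029).

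FTH1 (ENSG00000167996.16) had 857, 876 and 858 CPM in siControl, 826, 837 and 844 CPM in siSLC25A1, 725, 725 and 711 CPM in siACLY, and 815, 839 and 847 CPM in siACO1. The siControl libraries were above all others and the siACLY libraries below all others, while siSLC25A1 and siACO1 overlapped. FTH1 fell in siACLY (log2 fold change -0.26, SE 0.0362, adjusted p 1.3e-06). In siACO1 the difference from siControl was -0.05 (95% interval -0.12 to 0.02, adjusted p 0.29; -0.07 without replicate 3), although all 3 libraries were below the controls, and in siSLC25A1 it was -0.05 (-0.12 to 0.03, adjusted p 0.397). FTH1 was higher in siACO1 than in siACLY (0.21, SE 0.0362, adjusted p 2.18e-05), the opposite of FTL in the same comparison.

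The ratio of the ferritin chains shows the split within each library. FTL over FTH1, both in CPM per kb, was 4.94 ± 0.0882 in siControl, 4.76 ± 0.15 in siSLC25A1, 4.47 ± 0.0542 in siACLY and 3.35 ± 0.248 in siACO1 (SD, n = 3; exact permutation p 0.3, 0.1 and 0.1 against siControl, two-sided, where 0.1 is the smallest that 3 against 3 libraries can give). The siACO1 libraries had ratios of 3.31, 3.12 and 3.61, all below the lowest of the other groups, 4.41. TFRC over FTH1 was 0.212 ± 0.0017 in siControl, 0.266 ± 0.00629 in siSLC25A1, 0.219 ± 0.00112 in siACLY and 0.158 ± 0.00666 in siACO1 (SD, n = 3; exact permutation p 0.1 for each knockdown). With 9 such tests of ratios no adjusted p can fall below 0.1. The ratio was thus above siControl in siSLC25A1 and below it in siACO1, and in siACLY, where both transcripts fell, it differed from siControl by a factor of 1.03. Ferritin counts are uncertain, because 27.1% of the 31-base stretches of FTH1 and 33.3% of those of FTL also occur in other genes, mostly processed pseudogenes. The pseudogene rows held 0.469% to 0.737% of the FTH1 family's counts and 0.0928% to 0.18% of the FTL family's. BEST1, on the other strand, overlaps 62.4% of the exon bases of FTH1 and had 13 to 47 counts per library.

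**Figure D3:**
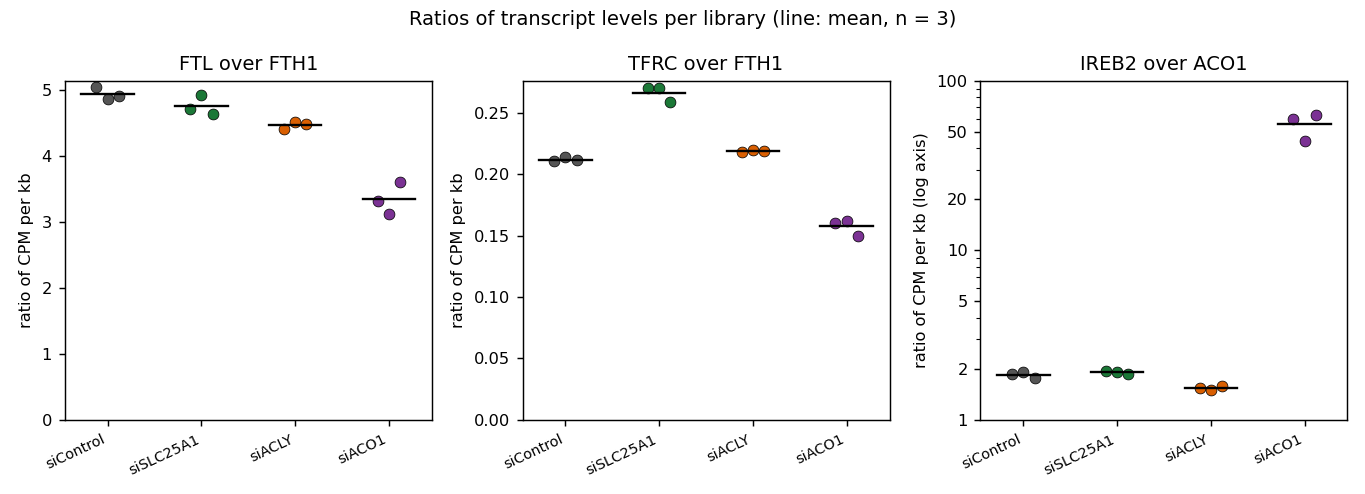
Ratio of transcript levels per kb in each library (points) with the mean of 3 libraries (lines) for FTL over FTH1, TFRC over FTH1 and IREB2 over ACO1 (log axis) in the 4 groups. The siACO1 libraries are lowest in both ratios to FTH1 and highest in IREB2 over ACO1, with a mean of 55.6, where ACO1 is the target of the siRNA.

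NCOA4 (ENSG00000266412.6) encodes the receptor that delivers ferritin to the lysosome for release of its iron. It had 158, 159.6 and 157 CPM in siControl, 155, 153 and 154 CPM in siSLC25A1, 157, 161 and 159 CPM in siACLY, and 148, 157 and 156 CPM in siACO1. No comparison called it, and the 95% intervals of its log2 fold change against siControl were -0.12 to 0.04 in siSLC25A1, -0.07 to 0.09 in siACLY and -0.12 to 0.04 in siACO1. Without replicate 3 of siACO1 the value there was -0.06, against -0.04. Its sign in siACO1 turned with library totals as the scaling (0.01 against -0.04).

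IREB2 and FBXL5, which act in the reading of the elements, were higher in siACO1. IREB2 (ENSG00000136381.13), which encodes iron regulatory protein 2, had 70.5, 70.8 and 70.3 CPM in siControl, 69.9, 67.4 and 71.0 CPM in siSLC25A1, 66.7, 64.4 and 66.5 CPM in siACLY, and 79.2, 77.6 and 75.6 CPM in siACO1. The siACO1 libraries were above all others. IREB2 rose in siACO1 by 0.13 (log2, SE 0.0443, adjusted p 0.017; 0.15 without replicate 3 of siACO1), a call lost with no filter on low counts (adjusted p 0.0776) and without replicate 1 or 3 of siControl (0.0533 and 0.0615) or replicate 1 of siACO1 (0.0747). The differences of siACO1 from siACLY (0.23, adjusted p 9.17e-05) and from siSLC25A1 (0.16, adjusted p 0.00542) held in all 20 alternatives. In siACLY the change was -0.10 (adjusted p 0.0847, and 0.04 with only the 2 groups in the fit or 0.0367 without replicate 3 of siACO1). Per length, IREB2 stood at 1.84 ± 0.0688 times ACO1 in siControl and at 55.6 ± 9.75 times in siACO1 (SD, n = 3; exact permutation p 0.1), with ACO1 itself at 3.75% of siControl and IREB2 at 109.8%. As ACO1 is the target of the siRNA, this ratio was bound to rise, and its p tests nothing about IREB2.

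FBXL5 (ENSG00000118564.15) encodes the iron-sensing subunit of the ubiquitin ligase that degrades iron regulatory protein 2 when iron is plentiful. It had 45.0, 45.0 and 45.5 CPM in siControl, 43.2, 39.4 and 46.1 CPM in siSLC25A1, 45.2, 44.1 and 47.3 CPM in siACLY, and 52.0, 52.5 and 56.1 CPM in siACO1. Again the siACO1 libraries were above all others, and siSLC25A1 and siACLY overlapped with siControl. FBXL5 rose in siACO1 by 0.25 (log2, SE 0.0554, adjusted p 0.000704; 0.21 without replicate 3), and siACO1 exceeded siACLY by 0.24 (adjusted p 0.000999) and siSLC25A1 by 0.32 (adjusted p 3.24e-05). Its changes in siSLC25A1 (-0.07, adjusted p 0.409) and siACLY (0.01, adjusted p 0.894) did not pass.

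EPAS1 (ENSG00000116016.14) encodes HIF-2α, a hypoxia-inducible factor whose message carries an element in its 5′ UTR. The transcript was scarce, with 27 to 97 counts per library: 1.54, 2.69 and 1.47 CPM in siControl, 1.74, 2.45 and 1.87 CPM in siSLC25A1, 1.96, 1.78 and 2.39 CPM in siACLY, and 1.09, 1.14 and 1.06 CPM in siACO1. The siACO1 libraries were the lowest 3 of the 12, and replicate 2 of siControl was the highest. EPAS1 fell in siACO1 (log2 fold change -0.80, SE 0.25, adjusted p 0.0105; -0.78 without replicate 3 of siACO1), a call that rests on that control library, since without it the log2 fold change was -0.46 and the adjusted p 0.182. Against siACLY (-0.89, adjusted p 0.00415) and siSLC25A1 (-0.88, adjusted p 0.00578) the difference held in all 20 alternatives. These 2 comparisons set no control library against siACO1, but their p-values use a spread estimated from all 12 libraries. The intervals in siSLC25A1 (-0.40 to 0.54) and siACLY (-0.37 to 0.55) are wide.

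Between the knockdowns, siACO1 against siACLY called 8 of the 9 genes, 3 higher and 5 lower, beside 42.1% of all tested genes, 20.7% higher and 21.4% lower. siACO1 against siSLC25A1 called 7, 2 higher and 5 lower, beside 42.1%, 20.3% higher and 21.8% lower (3287 and 3536 genes, or 3952 and 2886 with library totals alone). siACLY against siSLC25A1 called 5, all lower, beside 33.8%, 17.5% lower and 16.3% higher (2837 and 2635 genes, or 2233 and 3218 with library totals alone). These 5 were TFRC (log2 fold change -0.50), STEAP3 (-0.73), SLC11A2 (-0.25), FTH1 (-0.21) and FTL (-0.30). The groups did not overlap for 9, 7 and 7 genes in the same order, beside 49%, 48% and 46.5% of all tested genes. NCOA4 was called in none of the 3, and without replicate 3 of siACO1 the count against siACLY was 7, as SLC11A2 did not pass (-0.15, adjusted p 0.0976). The other siACO1 calls of these genes against siACLY and siSLC25A1 kept their direction and passed without that library. Median log2 fold changes of the 9 genes were -0.17, -0.41 and -0.21, beside 0.004, 0.013 and 0.013 for all tested genes.

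Other genes of iron handling were taken from 6 lists of 43 genes, of which 31 passed the filter. The lists, too, were chosen with earlier results of these data known, so their counts are descriptions. In siACO1 17 were called, 8 higher and 9 lower, beside 37.1% of all tested genes, 17.8% higher and 19.3% lower. In siACLY 12 were called, all lower, beside 36.7% of all tested genes, 18.4% higher and 18.3% lower. In siSLC25A1 5 were called, 3 higher and 2 lower, beside 19.6%, 10.3% higher and 9.27% lower. Their median log2 fold change was -0.04 in siACO1, -0.09 in siACLY and 0.01 in siSLC25A1. With library totals in place of scaling 9 were called in siACLY, and without replicate 3 of siACO1 16 were called in siACO1. Of the tested coding genes alone, 43.8% were called in siACO1, 43.7% in siACLY and 24.3% in siSLC25A1.

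Among 5 further transcripts reported to carry iron-responsive elements, 4 were tested. PFN2 is a regulator of actin, and the UTRs of the 1 transcript searched for it did not match. PFN2 had 171, 173 and 172 CPM in siControl and 279.8, 281 and 302 CPM in siACO1. Its log2 fold change there was 0.74 (SE 0.0443, adjusted p 8.62e-14) and 0.70 without replicate 3. It fell in siSLC25A1 (-0.29, adjusted p 1.58e-05). CDC42BPA, a kinase whose 3′ UTR matches and which was named after its values were seen, rose in siSLC25A1 (0.28, adjusted p 0.000639) and was lower in siACLY (-0.17, adjusted p 0.0211), a call lost in 5 alternatives.

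Of the import list 4 of 8 genes were tested, and 1 rose and 1 fell in siACO1. Of all tested genes 17.8% were called higher there and 19.3% lower. SLC39A14, the carrier ZIP14 for iron outside transferrin, had 361, 345 and 354 CPM in siControl and 278, 284 and 279 CPM in siACO1 without overlap (log2 fold change -0.33, SE 0.0398, adjusted p 9.7e-08, and -0.33 also without replicate 3). HFE, a partner of transferrin receptor 1, rose in siACO1 (0.25, adjusted p 0.00386; 0.20 without replicate 3) and fell in siACLY (-0.41, adjusted p 2.04e-05). Of the chaperones and mitochondrial importers 6 of 8 were tested and 3 fell in siACO1, by little, beside 19.3% of all tested genes. They were GLRX3, a chaperone of iron-sulfur clusters (-0.17, adjusted p 0.00171), SLC25A37, the mitochondrial importer mitoferrin 1 (-0.13, adjusted p 0.0323), and PCBP2, an iron chaperone (-0.10, adjusted p 0.0423). The libraries of SLC25A37 overlapped with siControl. Its call was lost in 5 alternatives: without replicate 3 of siACO1 (-0.08, adjusted p 0.164), with library totals (-0.08, 0.221), with 2 groups only (0.0703) and without replicate 2 or 3 of siControl (0.0902 and 0.106). Without replicate 3 of siACO1 GLRX3 was at -0.21 and PCBP2 at -0.12, both called, but the call of PCBP2 was lost in 9 other alternatives. In siACLY 3 of the 6 were also lower, beside 18.3% of all tested genes. Among them were SLC25A37 (-0.22, adjusted p 0.000504) and GLRX3 (-0.13, adjusted p 0.00962). That call of GLRX3 was lost with library totals (adjusted p 0.0587), and PCBP2 was not called in siACLY (-0.09, adjusted p 0.0629).

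The export and hepcidin list held the widest changes, at low levels. BMP6, a growth factor that induces hepcidin in the liver, had 2.20, 1.86 and 2.57 CPM in siControl and 0.523, 0.358 and 0.417 CPM in siACO1, from 11 to 13 counts per siACO1 library. It fell there (log2 fold change -2.35, SE 0.27, adjusted p 4.38e-08). CP, which encodes the ferroxidase ceruloplasmin, had 0.921, 0.916 and 0.893 CPM in siControl and 2.45, 1.82 and 2.22 CPM in siACO1, a rise of 1.24 (SE 0.24, adjusted p 0.000167). ERFE, the hormone erythroferrone, fell from 14.6, 13.6 and 13.7 CPM to 7.97, 8.26 and 8.83 CPM (-0.74, SE 0.0908, adjusted p 1.65e-07). None of these overlapped between siControl and siACO1, and without replicate 3 of siACO1 the log2 fold changes were -2.34, 1.21 and -0.78. TMPRSS6, the fourth tested gene of the list, was named after its values were seen; it rose in siACO1 (1.04, adjusted p 0.00968) at a mean of 0.674 CPM in siControl and 1.41 CPM in siACO1, and did not pass without replicate 3 of siControl (0.85, adjusted p 0.0575). Without replicate 3 of siACO1 it was at 1.13.

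Partners of FBXL5 and factors of TFRC decay formed a list of 7 genes, all tested. RC3H2, an RNA-binding protein of mRNA decay, fell in siACO1 from 122, 127 and 128 CPM to 91.4, 94.0 and 83.8 CPM (log2 fold change -0.48, SE 0.0468, adjusted p 1.97e-09; -0.44 without replicate 3), and differed from siControl by no more than 0.06 in the other knockdowns. RBX1, the RING subunit of the ligase, had 49.3, 46.7 and 58.6 CPM in siACO1 and rose by 0.22 (adjusted p 0.0145), which rests on replicate 3 (0.11, adjusted p 0.157 without it) and was lost without replicate 3 of siControl (0.20, adjusted p 0.0571). ZC3H12A, an endonuclease of 3′ UTR stem-loops, and SKP1, the ligase's adaptor, fell in siACLY (-0.54 and -0.35, adjusted p 0.00313 and 0.0119), the latter not without replicate 3 of siACLY (-0.30, adjusted p 0.0562). Both were named after their values were seen.

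Among the partner and hydroxylases of EPAS1 6 of 7 were tested. In siACO1 HIF1A, which encodes HIF-1α, rose by 0.19 (adjusted p 0.000527) and ARNT, the shared partner of both factors, by 0.18 (adjusted p 0.00712), while EGLN1, an oxygen- and iron-dependent prolyl hydroxylase, fell (-0.25, adjusted p 0.00411). Without replicate 3 of siACO1 the values were 0.19, 0.21 and -0.22, all called. The EGLN1 libraries overlapped, with 33.7, 28.1 and 33.4 CPM in siControl and 28.5, 26.0 and 25.4 CPM in siACO1. HIF1AN, another hydroxylase of the list that was named after its values were seen, rose in siACO1 (0.13, adjusted p 0.0226). That call was lost in 5 alternatives, and without replicate 3 of siACO1 the value was 0.12. HIF1A rose also in siSLC25A1 (0.22, adjusted p 0.000272). In siACLY EGLN1 (-0.36, adjusted p 0.000111) and VHL (-0.50, adjusted p 3.95e-09), which marks hydroxylated HIF-α for degradation and was named after its values were seen, both fell.

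**Figure D4:**
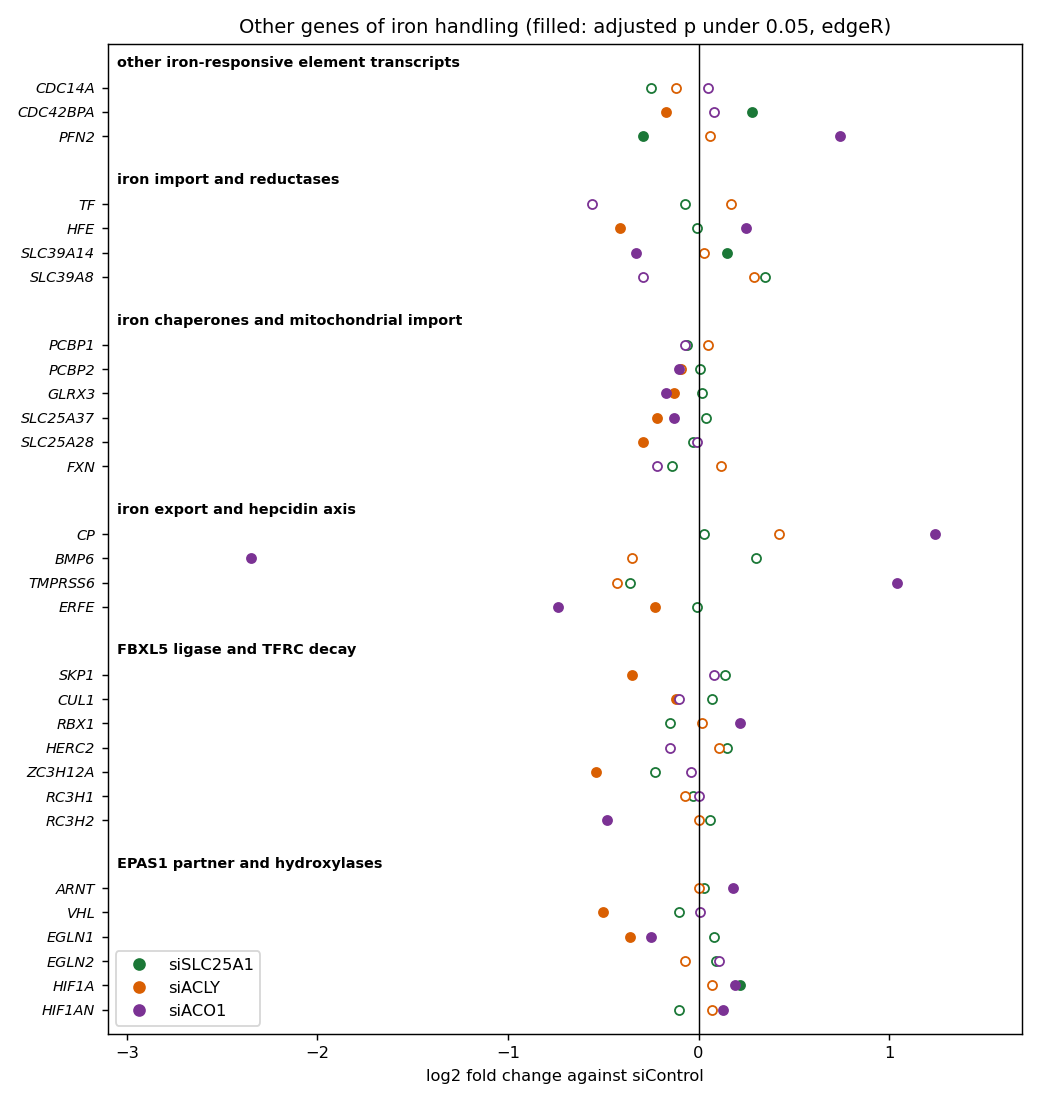
Log2 fold change against siControl (x axis) of tested genes of the 6 iron lists (y axis) in siSLC25A1, siACLY and siACO1; filled points have an adjusted p under 0.05 in edgeR's test. BMP6 at -2.35 and CP at 1.24, both in siACO1, are the widest changes, and all called siACLY points lie left of 0.

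For each gene called in siACO1, the 3 transcripts with the most similar profile over the 12 libraries were listed among 9968 genes of at least 5 CPM, by Pearson's r of log2 CPM. The 12 libraries share 4 groups, so r mostly reflects the group means, and it is given as a description. TFRC was most like ANO1 (r 0.994), LRRC58 (0.988) and TRIM35 (0.986), and STEAP3 most like ANGPTL4 (0.988), ETS2 (0.987) and PCGF5 (0.985). FTL was most like ECI1 (0.986), CDC37 (0.977) and CASK (0.976). The nearest profiles were those of SUN1, FMNL1 and ABHD17B for IREB2 (0.975 each), SLC25A11 for FBXL5 (0.973), WWC2 for SLC11A2 (0.951) and PHACTR2 for EPAS1 (0.944). No gene of the set appeared among the 3 profiles listed for another, but EPAS1 and SLC40A1, below 5 CPM, could not appear.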

How the data were processed

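Poly(A) RNA of 12 MiaPaCa-2 libraries was sequenced. Per gene and library, the authors deposited whole read counts that were not normalized, as the name of the count table and its values show. The submitters' processing notes name CASAVA, FastQC, Trim Galore, STAR 2.7.0e and DESeq2 and the builds GRCh38 and GRCm39; the counting tool, annotation release and use of strand are not given in the sources used here. Symbols from a table of gene names matched 62700 of the 70116 identifiers (89.4%), and all columns belonged to these samples. Groups came from the sample labels. Totals ran from 24159424 to 43792811 counts; counting is relative to the total, so a change in RNA per cell would not be seen.

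Genes kept by filterByExpr (16197) were normalized by TMM, the trimmed mean of M values, and fitted in edgeR 4.0.16 (R 4.3.3, limma 3.58.1) with a robust quasi-likelihood model of the 4 groups without a block (8 residual degrees of freedom, common biological coefficient of variation 4.89%). Adjusted p-values of single genes are two-sided, Benjamini-Hochberg over the tested genes, called under 0.05, from this fit if no other tool is given. Levels are CPM after TMM; per-kb values divide by the length of 1 GENCODE 29 transcript. That annotation may differ from the one behind the counts. Scripts were tested on simulated data.

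The 10 genes and the 6 lists were chosen with earlier results of these data known. Named beside them were the 3 targets, up to 3 called genes of each list with the largest change in siACO1 and a mean of at least 1 CPM, and the 3 most similar profiles of at least 5 CPM. A gene chosen by this rule is left out of the text and figures, but not of the counts. Alternatives were median-of-ratios scaling, library totals, DESeq2 1.42.0, no filter, 10 counts in every library, 2 groups only, a replicate block, pseudogene rows added to the ferritin genes, and each library left out in turn.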

Additional observations from a re-analysis of the deposited data

How the results depend on the processing

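The counts of called iron genes stayed within 1.5 times their value in all 6 comparisons and in every alternative but the added pseudogene rows, where they were not counted. With only 9 genes tested, the largest counts could not rise out of that band. The counts over the 6 lists stayed within it in all alternatives, which were added for the lists after the data had been seen. Over the 9 tested genes in 6 comparisons, 1080 single alternative values were computed: 16 lost a call, 4 gained one and 23 changed sign, all 23 of values not called. The lost and gained calls are those given in the report for SLC11A2, EPAS1, IREB2 and FTL. Of 739 alternative values of targets and called list genes, 43 lost a call, among them ACO1 in siACLY (112% of siControl, adjusted p 0.0239), which did not pass in 5 (adjusted p up to 0.105).

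The sign changes were as follows. With library totals, no filter and 10 counts in every library, the log2 fold change in siACO1 against siSLC25A1 was 0.04, 0.00448 and 0.01 for FTH1 (-0.003 in the report's fit) and 0.04, 0.00478 and 0.01 for NCOA4 (-0.00245). With library totals NCOA4 was 0.01 in siACO1 against siControl. Leaving out each library in turn gave these ranges: in siACO1 against siSLC25A1, -0.02 to 0.01 for FTH1 and -0.02 to 0.02 for NCOA4; in siACLY against siControl, -0.01 to 0.01 for NCOA4, -0.02 to 0.03 for FBXL5 and -0.06 to 0.44 for EPAS1; in siSLC25A1 against siControl, -0.09 to 0.42 for EPAS1; and in siACLY against siSLC25A1, -0.10 to 0.17 for EPAS1.

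The replicate numbers in the titles were not shown to pair the libraries, since deviations from the group means of same-numbered libraries had correlations of -0.034 to 0.0672 over 18 pairs, and not every library correlated best with its own number. With the replicate number as a block the called iron genes were 2 in siSLC25A1, 4 in siACLY and 7 in siACO1, and between knockdowns 7, 8 and 5, as without it, and no other call given here changed. Depth limits SLC40A1, with at most 2 counts in a library, and EPAS1, with 27 to 97.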

Other observations

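Beyond the 10 genes, 59 tested genes had a match to the element pattern in the 5′ UTR and 277 in the 3′ UTR of a GENCODE 29 transcript; a match of letters is not a known element. In siACO1 40.7% of the former and 45.1% of the latter were called by edgeR, beside 43.8% of the tested coding genes. In siACLY the shares were 47.5% and 44.4% beside 43.7%, and in siSLC25A1 16.9% and 25.3% beside 24.3%. Of those with a 3′ match 56 were higher and 69 lower in siACO1, and of those with a 5′ match 10 were higher and 14 lower. The median log2 fold change in siACO1 of the genes with a 3′ match was -0.02, beside -0.019 for the tested coding genes. These are descriptions with no test.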
